A study of Arabidopsis thaliana with 4 samples.

Results

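The truncated VuDREB2A line was compared with wild type on 2 of the 4 arrays of the series, chosen by their titles, which give the line, the form of the protein and the replicate number. Each array held RNA of the line and RNA of wild type Col-0, labelled with different dyes. The line carried the truncated form of VuDREB2A, a DREB2-type factor of cowpea, under the 35S promoter, which is active in most plant tissues, in the Col-0 background. Both genotypes were untreated whole plants, 21 days old, grown on sucrose-containing agar in vertical plates. On replicate 1 Cy3 marked the line and Cy5 wild type, and on replicate 2 the dyes were swapped. The other 2 arrays compared a 35S line of the full-length protein with wild type in the same way and entered the same fit. As far as the labels state, each construct was represented by 1 line. The array has no probe with the name of the cowpea gene. Transgene expression was thus not read, and the truncation cannot be told apart from other differences between the lines.

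DREB2A proteins are AP2/ERF transcription factors that bind the dehydration-responsive element (DRE) of drought and heat stress genes. In Arabidopsis the full DREB2A protein is unstable in unstressed plants, and removal of its negative regulatory domain gives an active form that raises drought and heat shock genes and reduces growth. Whether the truncation of the cowpea protein corresponds to that domain is not stated in the labels.

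Values are log2 ratios of line over wild type, with the SD over both arrays (n = 2), and channel values are normalized log2 intensities. The labels call the arrays biological replicates but do not say how plants were pooled, and the arrays also differ in dye orientation. The p-values thus reflect spread between the 4 arrays of the fit only, and the number of arrays limits the precision. Fits that left out 1 truncated array kept 1, so their residual spread came from the full-length arrays alone and dye orientation did not cancel. In each channel 65.6% to 72.2% of probes stood well above background, and 0 spots were saturated. Of 22445 features tested, 1590 were higher in the line (7.08%) and 1381 lower (6.15%), by limma at an adjusted p under 0.05. The median log2 ratio over all of them was 0.00 and the median absolute log2 ratio of those called was 0.41. At least 2-fold changes were fewer, with 62 genes higher (0.276%) and 54 lower (0.241%). All 2971 called features had 1 sign on both arrays. With median centring of each array in place of loess, only 25 and 16 passed. Across genes, the ratios of both arrays had a Pearson correlation of 0.704 (genes are not independent replicates).

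**Figure D1:**
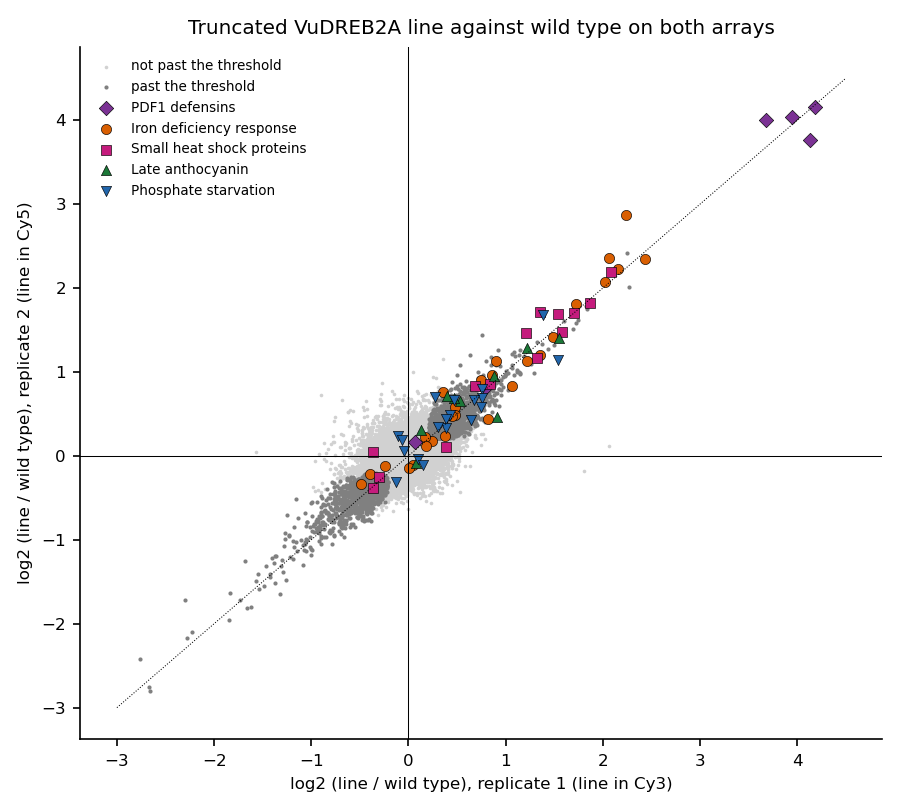
Log2 ratio of line over wild type on replicate 1 (horizontal) against replicate 2 (vertical), 1 point per gene, for all 22445 features tested. Grey shades mark whether a gene passed the threshold, coloured symbols mark 5 gene lists, and the dotted line is equality. The 4 defensin genes near 4 on both axes lie apart from all other genes, and the iron, small heat shock protein and anthocyanin genes that rose lie close to the dotted line.

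The 42 gene lists described below, reference genes included, hold 693 loci, of which 607 were tested. Lists and members were chosen with earlier results of these data known, so their counts describe the data and are no independent test of enrichment. Counts of the truncated line are to be read beside the shares over all features, 7.08% higher and 6.15% lower. Counts of the full-length line have another background, 2111 of 22445 features higher and 1374 lower (15.5% in either direction). Loci to which the gene table gives no symbol were placed in a list from general knowledge of the family, not from the table. Of the 62 genes that rose at least 2-fold, 40 were members of these lists: 10 of the iron deficiency response, 8 small heat shock proteins, 5 cytosolic chaperones, 4 PDF1 defensins, 3 early flavonoid genes, 3 starch genes, 2 phosphate starvation genes, 2 late anthocyanin genes, and the single genes PAP1, HSFA2 and CORI3. Of the 54 that fell at least 2-fold, 14 were members, with 3 each among major latex proteins and SABATH methyltransferases. Organ markers were read first. All 19 root marker genes were measured, with 0 higher and 1 lower (MRN1, -0.58, lost without replicate 2) and a median of -0.11. Their summed linear intensity was 13322 and 13224 in the line and 14487 and 14530 in wild type on replicates 1 and 2. Of 7 seed storage genes only CRA1 was above the filter (-0.06, adjusted p = 0.625). In RNA of whole plants, fewer cells of a type and less RNA per cell cannot be told apart.

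**Figure D2:**
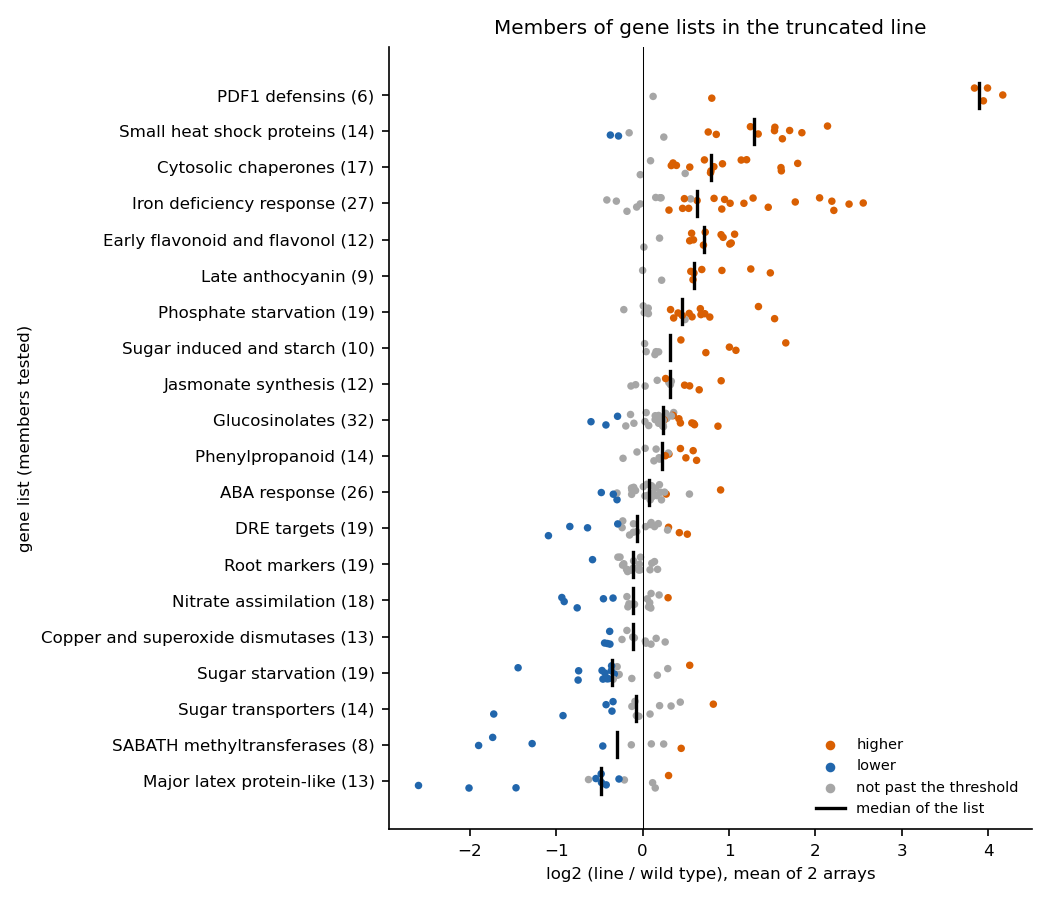
Log2 ratio (mean of both arrays, horizontal) of the tested members of 20 gene lists, with the number tested in brackets. Points are genes, coloured by whether they were higher, lower or not past the threshold, and black bars are list medians. PDF1 defensins and small heat shock proteins have the highest medians (3.89 and 1.29), and major latex proteins the lowest (-0.48).

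Many genes of the iron deficiency response were higher in the truncated line, both regulator and uptake genes, although the gene of FIT and some uptake genes did not pass. Iron uptake by the Arabidopsis root acidifies the soil, reduces ferric iron with FRO2 and imports ferrous iron with IRT1, under the control of FIT and its bHLH partners of subgroup Ib. Of 27 tested genes, 18 were higher, against 7.08% of all features, 0 were lower, and the median was 0.63. In the full-length line, whose arrays may share wild type RNA with these, the same genes had 4 higher, 1 lower and a median of -0.05. With either full-length array left out of the fit, 2 of the 27 were lower in the truncated line.

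IRT1, the root ferrous iron transporter, had channel values of 9.49 and 9.55 in the line and 7.33 and 7.33 in wild type on replicates 1 and 2. The ratios were 2.16 and 2.23, a 4.57-fold rise (2.19 ± 0.05, adjusted p = 0.00353), and another probe gave 1.99. FRO2, the ferric chelate reductase of the root surface, read 9.05 and 9.21 in the line against 7.03 and 7.13 in wild type, a 4.14-fold rise (2.05 ± 0.04, adjusted p = 0.000789). Both genes kept their direction over the dye swap, as did all 2971 called features. They are named because they were called, so the gap between their channels adds no support of its own. The 3 loci AT2G30766, AT1G47400 and AT1G47395, which the gene table gives no symbol, rose by 2.24 and 2.87, 2.43 and 2.35, and 2.07 and 2.36 on replicates 1 and 2. AT2G14247, in none of the lists, rose by a similar amount (2.25 and 2.42). ZIP8, a gene of the zinc and iron transporter family, rose by 1.83 and 1.78, with wild type above background on 1 of 2 arrays.

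All 4 genes of the Ib bHLH group were higher. BHLH100 read 8.01 and 8.24 in the line and did not stand well above background in wild type (0 of 2 arrays), so that it was at least 3.18-fold higher (adjusted p = 0.00129). It could pass the filter on dim probes only through the channel of a line, which limits what its call adds to the counts. bHLH38 rose by 1.49 and 1.41 (adjusted p = 0.00108), with wild type above background on 1 of 2 arrays. bHLH39 rose by 1.35 and 1.21 (adjusted p = 0.00365). BHLH101, named after its values were seen, rose by 1.22 and 1.13 (adjusted p = 0.00224). IRT2 (1.01) and CYP82C4 (1.06 and 0.84), also named after their values were seen, were higher, as were PYE, OPT3 and NRAMP4. Some genes of the uptake system did not pass. FRU, the gene of FIT, had -0.39 and -0.22 (adjusted p = 0.0813). ABCG37, a root exporter of phenolics that help mobilise iron, had 0.21 ± 0.05 (adjusted p = 0.0738), and HA2, the proton pump gene of the root, -0.03 (adjusted p = 0.82). NRAMP1, a transporter of manganese and iron, had -0.18 (adjusted p = 0.302).

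A few iron genes outside the uptake system moved the other way. NAS3, which makes the metal chelator nicotianamine, fell by 1.31 and 1.32 on the log2 scale (adjusted p = 0.00129). NAS2 and NAS4, genes of the same family in the iron deficiency list, were called higher, so the family went both ways. The ferritin genes FER1, FER3 and FER4, which encode iron storage proteins of plastids, had -0.08, 0.11 and -0.29 and did not pass. Of the 11 iron storage and sufficiency genes tested, 2 were lower and 1 higher. The lower ones were NAS3 and NEET (-0.37, lost without either truncated array), and the higher one was YSL1, a transporter gene for metal-nicotianamine complexes (0.40, lost without replicate 1). Without either full-length array in the fit, 4 of the 11 were lower. The root marker sum moved slightly down beside the rise of root-expressed uptake genes, by the values given above, and its part in the result was not tested.

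**Figure D3:**
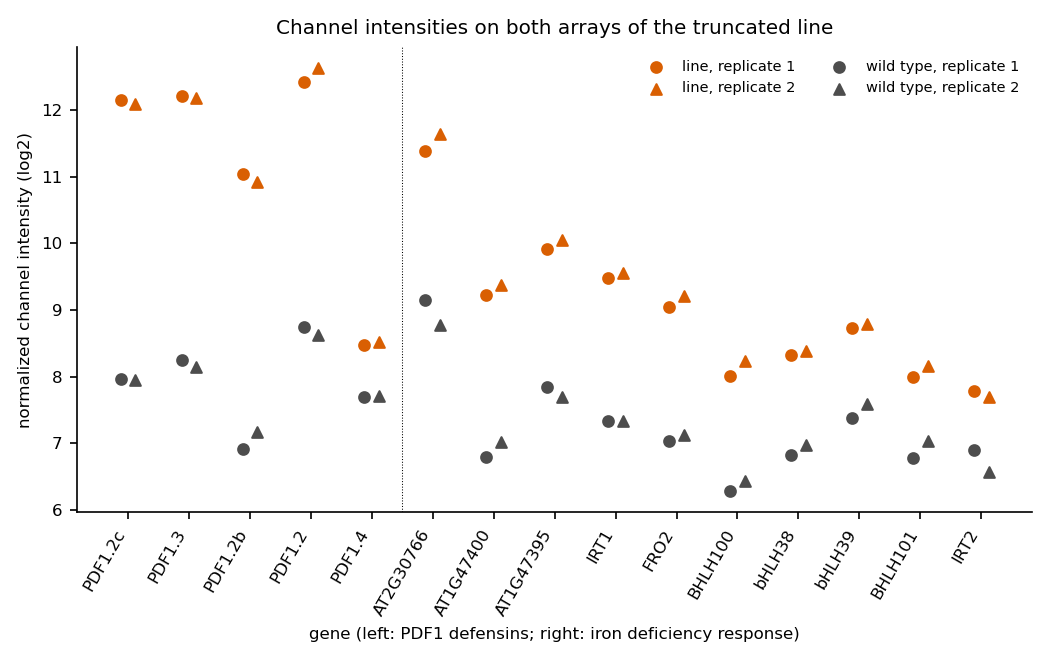
Normalized channel intensity (log2, vertical) of the 5 PDF1 defensin genes that rose (left of the dotted line) and the 10 iron deficiency genes with the largest rise (right). Orange symbols are the line and grey ones wild type, circles replicate 1 and triangles replicate 2. Line and wild type symbols do not overlap for any of the 15 genes, which follows from their choice by the size of the rise. PDF1.2c, for example, has 12.15 and 12.10 in the line against 7.97 and 7.94 in wild type.

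Other metals showed smaller and mixed values. Of 10 zinc transport genes tested, 3 were higher and 3 lower. ZIF1, a vacuolar exporter of nicotianamine, rose by 0.61 and 0.81 (another probe gave 0.13). MTPA2, a vacuolar zinc transporter also known as MTP3, rose by 0.52 and 0.74, and the uptake gene ZIP9 by 0.45 and 0.51. HMA2, a zinc-exporting pump of the vasculature, fell by 0.91 and 0.86 (adjusted p = 0.00438). ZIP3 (-0.40) and AT1G10970 (also called ZIP4, -0.29) were also lower, and 1 of the 3 lower calls was left without replicate 2. Of 13 copper and superoxide dismutase genes tested, 0 were higher and 4 lower, among them the chloroplast copper/zinc superoxide dismutase gene CSD2 (-0.40 and -0.42) and its copper chaperone CCS (-0.46 and -0.30). FSD1, the iron superoxide dismutase gene that replaces CSD2 at low copper, had 0.04 and 0.02 (adjusted p = 0.755). None of the 4 copper calls held in both fits that left out 1 truncated array.

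Phosphate starvation genes were also higher. Of 19 tested, 12 were higher, against 7.08% of all features, 0 were lower, and the median was 0.46. AT1G73010, a pyrophosphatase gene induced by phosphate starvation and also called PS2, read 10.14 and 10.23 in the line and 8.76 and 8.56 in wild type, a 2.88-fold rise (1.53 ± 0.21, adjusted p = 0.00365), with 0.73 and 0.83 at other probes. Several of the rises were in genes that replace membrane phospholipids with galactolipids and sulfolipids. MGDC, the galactolipid synthase gene also called MGD3, rose by 1.54 and 1.15, and MGD2 by 0.68 and 0.67. The sulfolipid genes SQD1 and SQD2 rose by 0.75 and 0.80, and by 0.47 and 0.67. PLDP2, the phospholipase D gene also called PLDZETA2, rose by 0.65 and 0.43 but lost the call without replicate 1.

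SPX1, an inhibitor of the phosphate starvation regulator PHR1, rose by 0.75 and 0.69 (adjusted p = 0.00695). The acid phosphatase gene PAP17 rose by 0.75 and 0.58. SPX2 (0.06), the ubiquitin-conjugating enzyme gene PHO2 (0.07), the uptake gene PHT1;1 (0.02) and the xylem loading gene PHO1 (-0.22) did not pass. In the full-length line 4 of the 19 were higher and 3 lower, and 7 of the 19 were higher in the truncated line than in the full-length one when the difference was tested, against 0.971% of all features. MGD2 and SQD2 had opposite signs in the lines (-0.36 and -0.40 in the full-length line), with differences of 1.04 (adjusted p = 0.011) and 0.97 (adjusted p = 0.0205). Of the 12 calls, 7 held in both fits that left out 1 truncated array.

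Both nitrate reductase genes were lower in the line. Of 18 tested, 5 were lower, against 6.15% of all features, 1 was higher, and the median was -0.11. NIA1 read 12.89 and 12.88 in the line against 13.60 and 13.68 in wild type (-0.76 ± 0.06, adjusted p = 0.00581). NIA2, which gives most of the nitrate reductase activity, read 13.93 and 13.92 against 14.36 and 14.40 (-0.45 ± 0.03, adjusted p = 0.0131), with -0.44 and -0.10 at other probes. Channels of line and wild type lay apart for both genes, which are named because they were called, so this adds no support of its own. The nitrite reductase gene NIR1 was lower by -0.44 and -0.24 and lost the call without replicate 1. BT1 and BT2, BTB and TAZ domain genes that respond to nitrogen and sugar, fell by 0.97 and 0.90, and by 0.92 and 0.90. The nitrate transporter gene NRT1.1 had -0.12 on both arrays (adjusted p = 0.21), and GS2, the plastid glutamine synthetase gene, 0.10 (adjusted p = 0.473). NIA1, NIA2 and NIR1 were higher than wild type in the full-length line (0.44, 0.61 and 0.38), and the lines differed by -1.20 (adjusted p = 0.0104), -1.06 (adjusted p = 0.0104) and -0.72 (adjusted p = 0.041).

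**Figure D4:**
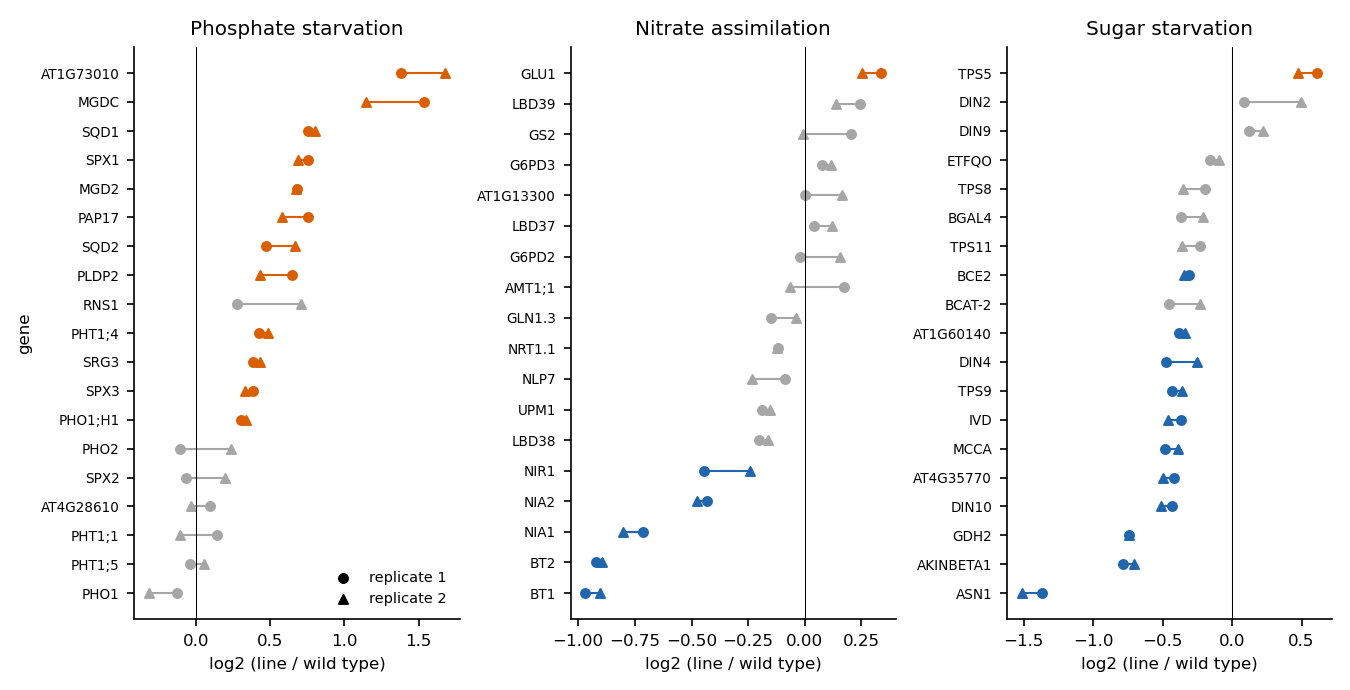
Log2 ratio of line over wild type (horizontal) on replicate 1 (circles) and replicate 2 (triangles) for the tested members of the phosphate starvation, nitrate assimilation and sugar starvation lists. Orange marks genes higher in the line, blue lower and grey not past the threshold. AT1G73010 stands at the top of the phosphate list (1.38 and 1.68) and ASN1 at the bottom of the sugar starvation list (-1.37 and -1.52).

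Genes known to be induced by sugar starvation and darkness were lower for 11 of 19 tested, against 6.15% of all features. Of the 19, 1 was higher, and the median was -0.36. In the full-length line 8 of them were lower and 1 higher. ASN1, the dark-induced asparagine synthetase gene, read 9.42 on both arrays in the line against 10.79 and 10.94 in wild type, a 2.72-fold fall (-1.44 ± 0.10, adjusted p = 0.00164). AKINBETA1, a subunit gene of the SnRK1 kinase, fell by 0.79 and 0.71, and the glutamate dehydrogenase gene GDH2 by 0.74 and 0.74, although further probes of these genes gave -0.63 and -0.04, and -0.73 and -0.15. DIN10 (-0.47), AT4G35770 (also called SEN1, -0.46), MCCA (-0.44) and IVD (-0.41), the last 2 of branched-chain amino acid breakdown, passed but lost the call without 1 of the truncated arrays. IVD had 0.03 at its other probe, opposite in sign, and the other probes of DIN10 ranged from -0.28 to -0.12. Of the 11 lower calls only those of ASN1, AKINBETA1 and GDH2 held in both fits that left out 1 truncated array. The trehalose phosphate synthase family gene TPS5 rose by 0.61 and 0.48.

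Of 10 genes induced by sugar or acting on starch, 5 were higher, 0 lower, and the median was 0.31. The full-length line also had 5 higher and 0 lower, with a median of 0.34. GPT2, the plastid glucose 6-phosphate importer, read 9.09 on both arrays in the line and 7.37 and 7.50 in wild type, a 3.15-fold rise (1.66 ± 0.09, adjusted p = 0.00164), with 1.05 at its other probe. The starch synthesis genes APL3, a subunit of ADP-glucose pyrophosphorylase, and GBSS1, granule-bound starch synthase, rose by 1.07 and 1.09, and by 0.94 and 1.07. BAM5, a beta-amylase gene, rose by 0.50 and 0.96, with wild type above background on 1 of 2 arrays. CT-BMY, a beta-amylase gene of starch degradation also called BAM3, was higher too, by 0.48 and 0.41 (adjusted p = 0.0187 by limma). The starch degradation genes DPE2 (0.04) and SEX1 (0.02) did not pass. GBSS1 was also higher than in the full-length line (adjusted p = 0.011, full-length ratio -0.14), whereas GPT2 had 1.77 there and the lines did not differ past the threshold (adjusted p = 0.62).

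Among 14 sugar transporter genes tested, 5 were lower and 1 higher. SWEET10, a sucrose exporter gene, read 6.82 and 6.63 in the line against 8.55 and 8.34 in wild type, a 3.31-fold fall (adjusted p = 0.000789), while its full-length ratio was 0.30. The hexose uptake gene STP1 fell by 0.87 and 0.97 (adjusted p = 0.00343). SWEET12 (-0.42), SWEET2 (-0.36) and STP4 (-0.34) were lower too, and 2 or 3 of the 5 lower calls were left without truncated replicate 1 or 2. SAG29, the senescence-associated gene also called SWEET15, rose by 0.87 and 0.77. The phloem loader SUC2 had -0.12 and SWEET11 0.09, neither past the threshold.

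Heat shock genes rose in plants that had no heat treatment. Heat shock proteins hold or refold damaged proteins, and heat shock factors bind their promoters. Of 14 small heat shock protein genes tested, 10 were higher, 2 lower, and the median was 1.29. In the full-length line 11 of them were higher, 0 lower, and the median was 0.82. AT1G53540 read 9.78 and 9.94 in the line against 7.69 and 7.75 in wild type, a 4.41-fold rise (2.14 ± 0.07, adjusted p = 0.000789). HSP17.6II and HSP17.6A, cytosolic members that lie next to each other in the genome, rose by 1.70 on both arrays, and by 1.58 and 1.47. HSP17.4 rose by 1.54 and 1.70. HSP23.6-MITO, of mitochondria, was at least 2.33-fold higher (adjusted p = 0.00224), since wild type stood well above background on 0 of 2 arrays. Like BHLH100, it could pass the filter only through the channel of a line. The plastid gene HSP21 had 0.38 and 0.11 (adjusted p = 0.234). The 2 lower members, HSP18.2 (-0.28) and AT4G21870 (-0.37), named after their values were seen, were not called without either truncated array.

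Of 17 cytosolic chaperone genes tested, 14 were higher, 0 lower, and the median was 0.79. HSP90.1, the heat-inducible HSP90 gene, read 12.21 and 12.10 in the line against 10.37 and 10.35 in wild type (1.8 ± 0.06), with 1.35 at its other probe. AT5G48570, a gene of an FK506-binding co-chaperone also called ROF2, rose by 1.6 and 1.61, HSP70 (AT3G12580) by 1.70 and 1.51, the co-chaperone gene Hop3 by 1.27 and 1.14, and the disaggregase gene HSP101 by 0.88 and 0.97. Constitutive HSP90 genes were included, since HSP81-2 and HSP81-3 rose by 1.14 and 0.79. BAG6 (-0.03) and Hsp70b (0.09) did not pass. Among 17 heat shock factors, HSFA2, an amplifier of the heat response, rose by 1.12 and 1.03 (adjusted p = 0.00606), HSFA7A was lower (-0.35 and -0.47, lost without replicate 2), and the other 15 did not pass. They included HSFA3, a known target of DREB2A in Arabidopsis, at -0.13 and -0.34 (adjusted p = 0.131). HSF4, also called HSFB1, was not past the threshold (0.17, adjusted p = 0.135) but had 0.81 in the full-length line (difference adjusted p = 0.034). In the full-length line 12 of the 17 chaperone genes were higher, and for 0 of them the difference between the lines passed the threshold.

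Flavonoid genes were higher along the pathway from phenylalanine to anthocyanin. Flavonols and anthocyanins are ultraviolet screens and antioxidants, and PAP1 is the MYB factor that switches on the late anthocyanin enzymes. PAP1 (AT1G56650) read 9.33 and 9.27 in the line against 7.06 and 7.25 in wild type, a 4.41-fold rise (2.14 ± 0.18, adjusted p = 0.00101). Its ratio was -0.05 in the full-length line (difference 2.19, adjusted p = 0.00476). MYBL2, a repressor of anthocyanin synthesis, fell by 0.48 and 0.77 (adjusted p = 0.0231). MYB90, MYB113 and MYB114, the closest relatives of PAP1, were below the filter on dim probes. MYB12 (0.01) and MYB111 (0.20), activators of flavonol synthesis, did not pass.

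Of 9 late anthocyanin genes, 7 were higher, 0 lower, and the median was 0.59. In the full-length line 2 of them were higher, 0 lower, and the median was 0.26. DFR, dihydroflavonol reductase, read 9.30 and 9.36 in the line against 7.75 and 7.94 in wild type (1.48 ± 0.10, adjusted p = 0.00129). GSTF12, the anthocyanin-carrying glutathione transferase also called TT19, rose by 1.22 and 1.28, with 0.51 at its other probe. The acyltransferase genes scpl10 and AT5MAT, which modify anthocyanins, rose by 0.88 and 0.95, and by 0.53 and 0.65. LDOX, the enzyme after DFR, rose by 0.91 and 0.46 but not past the threshold without replicate 1, and UF3GT, an anthocyanin glycosyltransferase gene, by 0.40 and 0.71 but not without replicate 2.

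Of 12 early flavonoid and flavonol genes tested, 10 were higher, 0 lower, and the median was 0.71. In the full-length line 8 of them were higher, 0 lower, and the median was 0.34. F3H rose by 1.08 and 0.97, the flavonol synthase gene FLS1 by 0.96 and 0.91, and the flavonol rhamnosyltransferase gene UGT78D1 by 0.95 and 0.86. Chalcone isomerase (TT5, 0.70), its non-catalytic relative CHIL (0.59) and flavonoid 3'-hydroxylase (TT7, 0.72) rose less. 4CL3, the CoA ligase gene of the flavonoid branch, rose by 1.02 and 0.99, while another probe, below the filter, gave 0.06. Of 14 general phenylpropanoid genes 6 were higher and 0 lower, with PAL1 at 0.60 and 0.64, C4H at 0.59 and 0.58 and 4CL1 at 0.55 and 0.46. Only 3 of these 6 calls were made without replicate 1.

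PDF1 defensins, small antifungal proteins of the jasmonate and ethylene defence branch, had the largest rises of the comparison. Of 6 tested, 5 were higher and 0 lower, with a median of 3.89. The full-length line also had 5 higher and 0 lower, with a median of 1.07. PDF1.2c read 12.15 and 12.10 in the line against 7.97 and 7.94 in wild type, an 18-fold rise (4.17 ± 0.02, adjusted p = 9.52e-05). PDF1.3, PDF1.2b and PDF1.2 rose by 3.95 and 4.04, 4.13 and 3.76, and 3.68 and 4.01, and PDF1.4 by 0.79 and 0.81, while PDF1.5 did not pass (0.12, adjusted p = 0.295). The first 4 are near-identical in sequence and their probes may share signal. Of 17 ethylene branch genes, which include the transcription factor gene ORA59, 0 were higher and 1 was lower (ERF6, -0.60 and -0.47, adjusted p = 0.0137). ORA59 had 0.32 and did not pass, and ERF1 was below the filter, both named after their values were seen. Without either full-length array in the fit, 2 of the 17 were higher and 2 lower.

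Genes of the wound branch of jasmonate signalling, which MYC factors control, went both ways. VSP2, a vegetative storage protein gene, read 8.36 and 8.34 in the line against 10.63 and 10.51 in wild type, a 4.66-fold fall (-2.22 ± 0.07, adjusted p = 0.000724). VSP1 fell by 2.22 and 2.1, with -2.27, -1.13 and -1.06 at other probes. In contrast CORI3, a coronatine-induced gene, rose by 1.27 and 1.1, and CLH1, a jasmonate-induced chlorophyllase gene, by 0.97 and 0.95. MYC2 (-0.08), MYC3 (-0.21) and MYC4 (0.15) did not pass. Of 12 jasmonate synthesis genes tested, 5 were higher and 0 lower, led by the lipoxygenase gene LOX2 (0.93 and 0.89, with 0.57, 0.32 and 0.24 at other probes). JMT, the jasmonate methyltransferase gene, rose by 0.56 and 0.75, and AOC1, an allene oxide cyclase gene, by 0.56 and 0.53. Only 3 of the 5 were called without replicate 1. Of 10 JAZ repressor genes 1 was higher, JAZ6 (0.38), lost without either truncated array.

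Glucosinolate genes, which make and break down sulfur-containing defence compounds, had 9 of 32 higher and 3 lower, with a median of 0.24. The full-length line had 19 of the 32 higher and 1 lower, with a median of 0.33. The factors of aliphatic glucosinolate synthesis, MYB28 and MYB29, rose by 0.68 and 0.45, and by 0.68 and 0.50. AOP2, a side chain enzyme gene, rose by 0.77 and 0.97. AT1G54040, the epithiospecifier protein gene ESP, which diverts breakdown from isothiocyanates, rose by 0.60 on both arrays, and the nitrile specifier gene NSP1 fell by 0.61 and 0.59. CYP79B3, of indole glucosinolate synthesis, was lower (-0.43, lost without replicate 1). Without replicate 1, 4 were higher and 1 lower. The lines differed for ESP (adjusted p = 0.022), NSP1 (-0.87, adjusted p = 0.0138) and CYP79B3 (adjusted p = 0.045), whereas AOP2 and MYB28 had 0.83 and 0.54 in the full-length line and did not differ past the threshold.

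Genes that carry the DRE or follow the Arabidopsis DREB2 and CBF factors went both ways. Of 19 tested, 3 were higher and 4 lower, with a median of -0.07. LTI78, also called RD29A, read 8.83 and 8.82 in the line against 8.27 and 8.34 in wild type (0.52 ± 0.06, adjusted p = 0.0184), with 0.13 at its other probe. COR15A (0.49 and 0.36) and GolS2 (0.34 and 0.26) were higher too, and of the 3 only 1 was called without replicate 1. COR413IM1, a cold-induced chloroplast membrane gene, fell by 1.00 and 1.19, the galactinol synthase gene GolS1 by 0.80 and 0.89, and the dehydrin gene LTI30 by 0.76 and 0.52. COR47 (-0.11) and KIN1 (0.18) did not pass. The native DREB2A gene had 0.22 and 0.04 (0.13 ± 0.13, adjusted p = 0.409), with -0.09 and 0.11 at other probes. Of 8 native DREB2 genes and regulators tested, with 7 more below the filter, 0 were higher and 1 lower (AT1G75490, -0.29, lost without either truncated array). Of 26 ABA response genes 2 were higher and 3 lower, against 7.08% and 6.15% of all features. They were led by the caleosin gene RD20 (0.91 and 0.89). The other ABA calls were lost in at least 1 fit that left out 1 truncated array.

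Major latex proteins are a family related to stress proteins whose roles are mostly unknown. Of 13 major latex protein genes tested, 8 were lower and 1 higher, with a median of -0.48. AT4G14060 fell by 2.77 and 2.43 (channels 7.65 and 7.82 in the line, 10.41 and 10.25 in wild type), MLP328 by 2.3 and 1.72, and MLP34 by 1.68 and 1.26. The channel values of MLP328 were 12.51 and 12.87 in the line and 14.82 and 14.59 in wild type. MLP423 (0.15) and MLP31 (0.11) did not pass. Of 8 SABATH methyltransferase genes, a family that methylates small acids, 4 were lower and 1 higher. AT5G37990 and AT5G37970 fell by 1.85 and 1.95, and by 1.67 and 1.81, and AT5G38020 by 1.37 and 1.19.

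CYP712A1, a cytochrome P450 gene, fell by 2.67 and 2.75, although its other probe gave -0.73. AT1G52820, with no symbol in the gene table, had log2 ratios of -2.66 and -2.8, the largest fall of the comparison. AT3G62550 (-1.84 and -1.63), the cysteine protease gene AT4G11320 (-1.54 and -1.59), AT4G36430 (-1.56 and -1.49) and AT4G29270 (-1.55 and -1.40) completed the 15 largest falls together with SWEET10, ASN1 and the genes above. Of 31 glutathione transferase genes, 5 were higher and 5 lower, against 7.08% and 6.15% of all features. They ranged from ERD9 (0.90 and 0.87) and GSTF2 (0.70 and 0.60) to GSTU26 (-0.47 on both arrays) and GSTF14 (-1.38 and -1.28). Of the 5 lower calls, 2 (GSTF14 and GSTU26) held in both fits that left out 1 truncated array.

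FT and AGL20, genes of the floral transition, were lower, while 1 floral organ gene was higher. Of 9 flowering and floral genes tested, with 5 more below the filter, 2 were higher and 3 lower. FT, the mobile flowering signal, had -1.25 and -0.71 (-0.98 ± 0.38, adjusted p = 0.0272), with the line above background on 1 of 2 arrays. AGL20, the flowering integrator also called SOC1, fell by 0.75 and 0.58. SEP3, a floral organ factor, fell by 0.91 and 0.74 and had 0.51 in the full-length line (difference -1.33, adjusted p = 0.00938). PI, a petal and stamen factor, rose by 0.87 and 0.85. FLC, the repressor of FT and SOC1, was higher (0.39 and 0.23) but lost the call without either truncated array. The summed intensity of the 9 genes was 5550 and 6308 in the line against 7120 and 6537 in wild type, and the list median was -0.41 on replicate 1 but 0.08 on replicate 2. The part of these values in the results for single genes was not tested. Of 16 gibberellin genes 3 were higher and 3 lower, against 7.08% and 6.15% of all features. They were led by GASA6, a gibberellin-regulated peptide gene, which fell by 1.18 and 1.01. The other gibberellin calls were lost in at least 1 fit that left out 1 truncated array.

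Light harvesting and Rubisco genes read differently on the arrays. The list median was -0.37 on replicate 1 but 0.03 on replicate 2, and 15 of 25 had opposite signs. RBCS1A, for the small Rubisco subunit, had -0.60 with the line in Cy3 and 0.55 with the line in Cy5. These genes are among the brightest on the array, with 20 of 25 in the top 1%, and 1 of 25 was called (LHCB2.3, -0.34, lost without either truncated array). The brightest 225 genes had medians of -0.05 and 0.12. Dye and replicate cannot be told apart in this pattern.

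Several other lists held few calls in number, although some lay above the shares over all features, 7.08% higher and 6.15% lower. Among these were the lower calls of salicylic acid, evening clock and early WRKY and touch genes and the higher calls of morning clock genes. Salicylic acid genes had 1 higher and 4 lower of 18, of which only the lower call of PCC1 held in both fits that left out 1 truncated array. PCC1, a pathogen and clock controlled gene, was at least 1.37-fold lower (adjusted p = 0.0128), with the line well above background on 0 of 2 arrays. Camalexin genes had 0 called of 3, with PAD3, the last enzyme of camalexin synthesis, at 0.27 against 1.96 in the full-length line (difference adjusted p = 0.02). Sulfur deficiency genes had 2 higher and 0 lower of 16, redox and mitochondrial stress genes 2 and 0 of 13, morning clock genes 2 and 0 of 10, evening clock genes 0 and 2 of 9, aquaporins 2 and 1 of 19, and early WRKY and touch genes 1 and 2 of 10. Of the lists in that sentence, all but the redox one lost every call in at least 1 direction without 1 of the truncated arrays. Reference genes had 0 higher and 2 lower of 12 (ACT8, -0.45, and PEX4, -0.40), both lost without replicate 1.

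The lists differed in how far their calls held. With 1 truncated array left out, residual spread came from the full-length arrays alone, so these fits do not measure spread within the truncated line. Of 200 genes called and named by the rule for this report, 124 kept their call in both fits that left out 1 truncated array. With median centring in place of loess, calls remained for 7 iron genes, 5 small heat shock protein genes, 4 defensins, 2 SABATH genes and 1 each of the chaperones, late anthocyanin genes, starch genes, sugar starvation genes and major latex proteins, and for VSP1, VSP2, PAP1 and SWEET10. No call of the early flavonoid, phosphate, nitrate, zinc or DRE lists remained with it.

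The truncated line differed from the full-length line in 698 features (3.11%), with 218 (0.971%) in which the truncated line was the higher one and 480 (2.14%) in which it was the lower. With median centring 0 differed at the adjusted threshold by limma, and 425 had an unadjusted p under 0.05. In the iron list 12 of 27 were higher than in the full-length line and 1 lower. IRT1 had ratios of -0.46 and 0.15 there, and AT1G47400 had -0.31 and -0.10, against 2.43 and 2.35 in the truncated line. NAS3 had 1.66 and 1.6 there, so that the lines lay on opposite sides of wild type (difference -2.94, adjusted p = 0.00323). In the early flavonoid list 4 of 12 were higher than in the full-length line, among late anthocyanin genes 3 of 9, and among small heat shock proteins 4 of 14, with 1 lower.

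**Figure D5:**
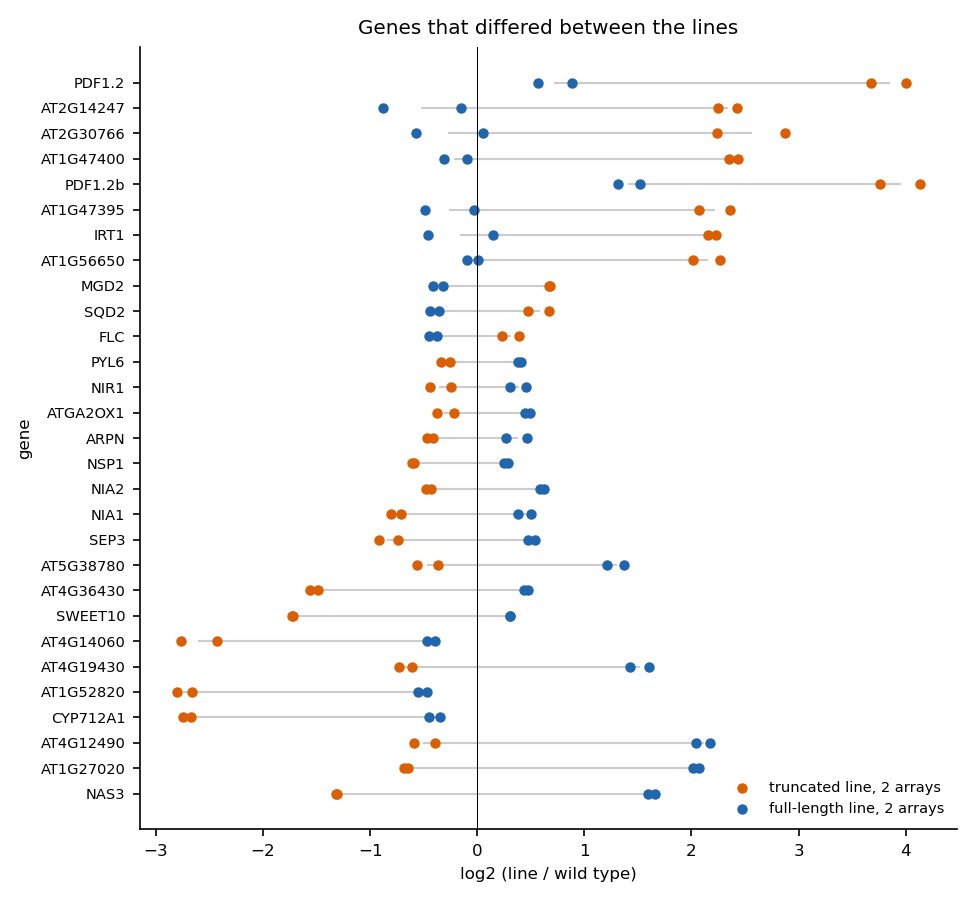
Log2 ratio of line over wild type (horizontal) on each array for 29 genes whose difference between the lines passed the threshold, ordered by that difference. Orange points are the truncated line, blue points the full-length line, and grey bars join the means. PDF1.2 shows the largest excess of the truncated line (3.11), and NAS3 the largest deficit (-2.94), with the lines on opposite sides of 0.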

How the data were processed

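RNA of whole plants was measured on 4 Agilent arrays with 2 colours, all of 1 slide and 1 scan. Per the file headers, the authors read them with Agilent Feature Extraction 10.7.3.1, which gives median intensity of spot and local background in each channel, flags, and the log10 ratio of Cy5 over Cy3 of processed signals. The deposited table of processed values gives the line over wild type on a log2 scale (slopes of 0.998 to 1 against the log10 ratios turned that way, medians from -0.07 to 0.04), so scale, centring and direction are known.

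Spots marked as outliers (20 to 50 per array) were left out, background was corrected with normexp (offset 50) on median signals, in place of the planned means, and ratios were normalized by loess within arrays. Channel levels are after loess and Aquantile scaling. A gene was tested where both arrays of a line had it well above background in the line's channel, or where all 4 arrays had it so for wild type (22445 features from 43603 probes, 86 with a missing value left out), by the brightest probe. Of these, 20344 carried a locus, and 20146 matched the gene table. The filter asked for 2 arrays of a line but for all 4 of wild type. Genes bright only in a line could thus enter more easily than genes bright only in wild type, which limits the counts of rises. limma 3.58.1 (R 4.3.3) fitted both lines together, with 2 residual and 3.18 prior degrees of freedom and Benjamini-Hochberg adjustment over all features. On simulated data the fit recovered 20 of 100 genes changed by 0.5 on the log2 scale and 72 of 100 changed by 1. The simulated noise was independent between arrays, whereas deviations of arrays with the same replicate number correlated at 0.775 in the real data. The simulation thus does not show how the fit performs with such shared deviations.

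An "at least" fold sets the bright group's mean against, per array, the higher of the dim probe's signal and the lowest signal well above background. Named genes are the 15 largest rises and falls, up to 8 called and 4 bright uncalled members of each list, 8 per direction of the difference between lines, and DREB2A, RD29A and HSFA3. Members, lists and rules were chosen with earlier results of these data known. Alternatives changed normalization, background, source of values, marked spots, filter, probe choice, samples, replicate block and variance model. Array annotation and gene table come from different genome builds, and no coordinates are given. The planned description of promoter motifs was not made, since no promoter sequence was used here.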

Additional observations from a re-analysis of the deposited data

Results flagged for a closer look

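Each value here is the difference of log2 ratios, truncated minus full-length line, of genes that were also called in the truncated line, tested by limma in 1 fit of 4 arrays. These are the largest differences in each direction, and the genes whose called ratios had opposite signs in the lines. The labels do not say whether the lines share wild type RNA, and none of these differences passed with median centring.

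The truncated line was higher for the defensin genes PDF1.2 (3.11) and PDF1.2b (2.53), for AT2G14247 (2.85), AT2G30766 (2.81), AT1G47400 (2.60) and AT1G47395 (2.47), for IRT1 (2.35), and for PAP1 (AT1G56650, 2.19). The genes MGD2 (1.04), SQD2 (0.97) and FLC (0.72) were higher than wild type in the truncated and lower in the full-length line.

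The truncated line was lower for NAS3 (-2.94), AT1G27020 (-2.70), AT4G12490 (-2.60), CYP712A1 (-2.31), AT1G52820 (-2.22), AT4G19430 (-2.19) and AT4G14060 (-2.16). Of these, NAS3, AT1G27020, AT4G12490 and AT4G19430 were lower than wild type in the truncated and higher in the full-length line. The following were also lower than wild type in the truncated and higher in the full-length line: SWEET10 (-2.03), AT4G36430 (-1.98), AT5G38780 (-1.75), SEP3 (-1.33), NIA1 (-1.20), NIA2 (-1.06), NSP1 (-0.87), ARPN (-0.81), ATGA2OX1 (-0.77), NIR1 (-0.72) and PYL6 (-0.69). With 2 arrays per line, single arrays that stand apart could not be sought.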

How the results depend on the processing

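No called gene changed sign under any alternative run, but for many of the runs this was fixed in advance. Fits that left out arrays, added the block or changed the variance model used the same array ratios. Called genes had 1 sign on both truncated arrays, so these fits could not change it. Against 1590 higher and 1381 lower features, counts were 25 and 16 with median centring, 356 and 348 with no filter on dim probes, and 6327 and 5858 with a replicate block. Leaving out each truncated replicate gave 742 to 785 higher and 589 to 846 lower, and each full-length replicate 1897 and 1666. The 698 differences between the lines became 0 with median centring (425 at an unadjusted p under 0.05, limma), 164 with Agilent's log ratios and with the deposited values, 367 with marked spots kept, 86 with no filter and 8797 with the block; leaving out single arrays gave 715 to 809. Of 200 named calls, 167 were lost with median centring, 91 with no filter, 62 and 53 without truncated replicate 1 or 2, 33 with Agilent's or deposited values, 20 with marked spots kept, 6 to 10 with the remaining alternatives, and 0 with the block, with which 97 of 154 named genes not past the threshold passed and 16 of 25 light harvesting genes were lower. The cause was not tested. Only 2 replicate pairs exist and the labels name no shared plants. In both lines the replicate number equals the dye orientation, so the block also takes up dye effects, and dye and replicate cannot be told apart. Their deviations correlated at 0.775 across genes. A block for slide or scan was not run, since all arrays share 1. Signal limits 14 rises with wild type, and 14 falls with the line, not well above background.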

Other observations

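Gene families outside the lists were read after the data were seen, by their names in the gene table, and are given as counts with no test of the family. Those given here were picked from 24 families, and the shares over all features were 7.08% higher and 6.15% lower. Of transcripts of the organelle genomes, 36 of 66 chloroplast features were called higher and 0 lower (median 0.36, with 0.39 and 0.40 on replicates 1 and 2), and 18 of 53 mitochondrial features higher and 0 lower (median 0.26). ATCG00170 and ATCG00180, of the plastid genome, rose by 0.93 and 0.80, and by 0.88 and 0.83. ATMG00210, of the mitochondrial genome, rose by 0.80 and 0.67. Features of both genomes outside the counts called higher did not pass. None of 48 ribosomal protein genes was called by limma. ABC transporter genes had 23 higher and 3 lower of 103, such as ABCC8 (0.87 and 0.66) and ABCC3 (0.60 and 0.61). Beta glucosidases had 9 higher and 1 lower of 31, with BGLU6 at 0.97 and 0.83. MYB factors (5 higher and 5 lower of 84) and cytochrome P450 genes (19 and 14 of 165) went both ways.

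Cell wall loosening expansins had 0 higher and 4 lower of 19, with EXPA8 at -0.94 and -0.90 and EXPA11 at -0.80 and -0.72. NAC factors had 0 higher and 7 lower of 58, with NAC074 at -0.89 and -0.72. Of 11 calmodulin-like genes 3 were lower, among them CML38 (-0.94 and -0.75). PAR1, a shade-induced bHLH gene, fell by 1.07 and 1.02.

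Among 104 genes that changed at least 2-fold and could be placed in gene order, 12 pairs lay within 2 genes of each other, and 11 of these changed in the same direction. They include IRT1 and IRT2, bHLH38 and bHLH39, VSP1 and VSP2, and AT1G47395 and AT1G47400. Several are tandem copies whose probes may share signal. The pair with opposite directions was BHLH100 (1.77) and M17 (-1.13).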
